A study of Drosophila melanogaster with 8 samples.

Results

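A set of 10 genes, of the 17559 gene IDs in the count tables, is known to mark injury and stress in the Drosophila wing imaginal disc, the larval epithelial sac that forms the wing and thorax. They are the ligand egr, the JNK response genes puc, Mmp1, Ets21C and Atf3, the damage hormone Ilp8, the cytokines upd1, upd2 and upd3, and the feedback gene Socs36E. They were chosen by name, and all 10 were matched by symbol in all 8 libraries. RNA-seq had been made from whole wing discs to find the function of Antp, a Hox transcription factor, in the myoblasts on the disc epithelium called adult muscle precursors (AMPs). The CRISPR group (1151>AntpCRISPR) had 4 libraries, in which CRISPR against Antp was directed by the driver 1151, and the wt group (1151 crossed to w1118) had 4 libraries with the same driver and no CRISPR transgene. Larvae of both groups were raised at 29 °C, and discs were taken at the wandering stage, about 5 days after egg lay.

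The 1151 driver is known for expression in the AMPs, which are a minority of the cells of a disc, so the epithelium that carries most of the known damage response was in every library but was not the cell type addressed. Fewer cells of a type and less RNA per cell cannot be told apart in such bulk samples. The CRISPR transgene and its genetic background go with genotype. The labels do not state whether libraries of a group were separate pools of discs, and the p-values cover the spread among these libraries, part of which may be technical. The level of Antp RNA ranged from 145 to 211 CPM (reads scaled to a common library size) in the CRISPR libraries and from 121 to 195 CPM in the wt libraries. RNA from an edited locus can still be counted, so these levels do not check the genotype labels.

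In a damaged disc, Eiger, the fly tumour necrosis factor encoded by egr, can activate the kinase JNK through the receptors Grindelwald and Wengen. JNK then acts through AP-1 on genes such as puc, whose phosphatase switches JNK off again. Damaged discs also secrete Unpaired cytokines, which act through the receptor Domeless, the kinase Hopscotch and Stat92E, and Ilp8, a relaxin-like hormone that delays pupariation. These genes are therefore often read together as a sign of tissue stress.

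Gene reads ranged from 35076546 in CRISPR 1 to 47980221 in wt 2. According to the labels the submitters used only CRISPR 1 and CRISPR 2 with wt 2 and wt 3, for a reason they do not give, and genotypes were compared over all 8 libraries and over the 4 used ones. Summed over 10 gut markers, the level in CRISPR 3 was 1182 CPM and the levels in wt 2 and wt 3 were 2124 and 2141 CPM, with at most 8.39 CPM in the other 5 libraries. Genes with much exon sequence were low in CRISPR 4 and wt 4, where Spearman's rho of exon length with the deviation from the median library was -0.46 and -0.37 across 9057 genes, which are not independent. The closest pair of libraries was wt 2 with wt 3, whose log2 ratio had a robust SD of 0.0557 where counting alone gives 0.0389, and the remaining 27 pairs had 0.141 to 0.466. Markers of the AMPs summed to between 769 and 915 CPM in CRISPR libraries and between 796 and 810 CPM in wt libraries, and markers of the disc epithelium to 3107 to 3596 CPM in CRISPR and 3141 to 3224 CPM in wt.

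Over all 8 libraries, none of the 10 disc damage genes passed the test between CRISPR and wt discs. The edgeR quasi-likelihood test called 0 of 10 at a Benjamini-Hochberg adjusted p under 0.05, where it called 17 of all 9255 genes tested, or 0.184%. Each of the 10 had an edgeR adjusted p of 0.9999, and none had an unadjusted p under 0.05 in edgeR. DESeq2 also called 0 of 10, where it called 1.07% of 11368 genes, with egr and Ilp8 at an unadjusted p under 0.05. The genotypes overlapped for every one of the 10 genes. How many of all genes tested overlap was not counted, so overlap and its absence are descriptions here and below. Of the 10 fitted differences, 5 were above 0 on the log2 scale, where 57.2% of all genes tested were. The median of the 10 was -0.04, beside a median of 0.02 over all genes tested. The width of the intervals differed between genes. The 95% interval of the CRISPR over wt difference ran from -0.30 to 0.38 (log2) for puc and from -0.18 to 0.58 for Mmp1, but from -0.56 to 4.46 for Ilp8.

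**Figure D1:**
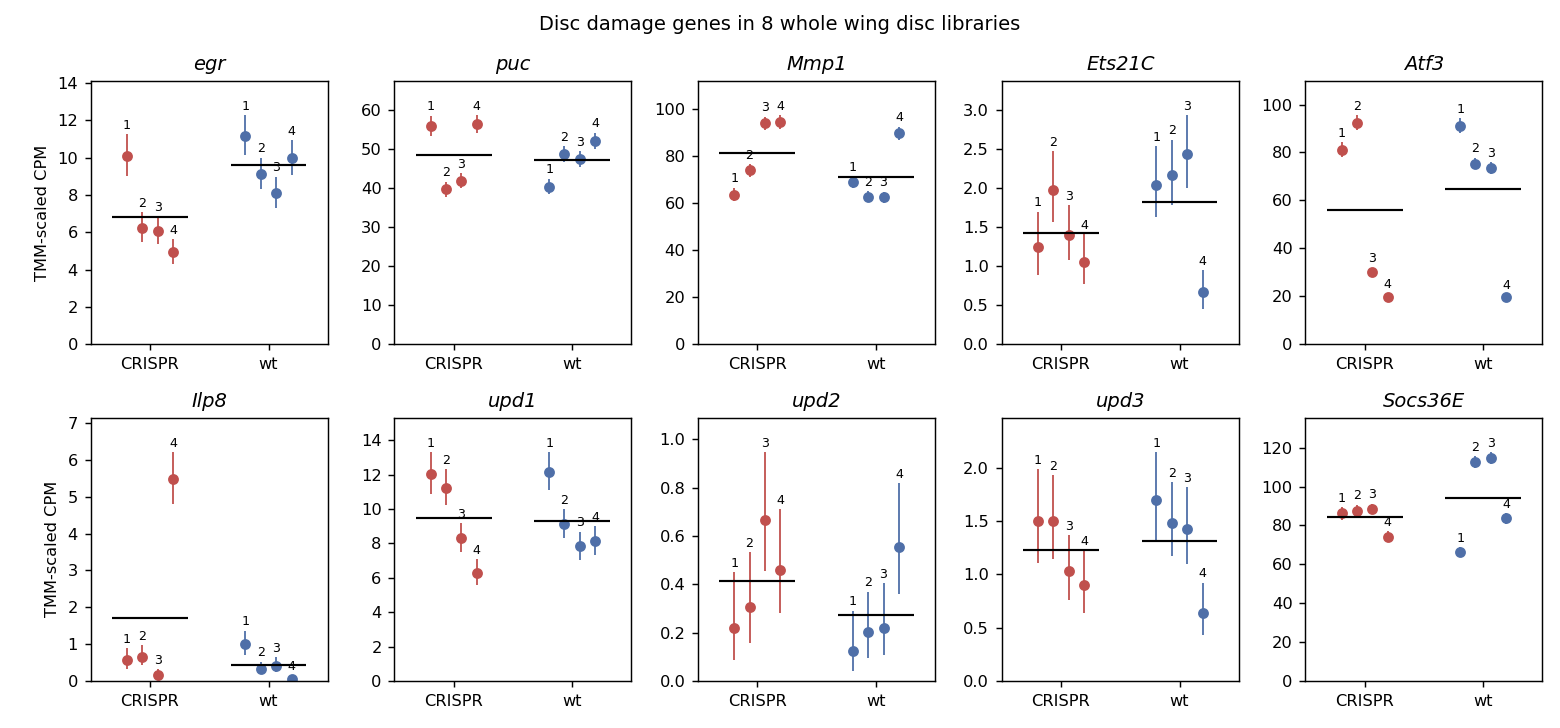
Level of each disc damage gene in every library, in CPM scaled by TMM factors, with CRISPR libraries in red on the left and wt libraries in blue on the right. Digits are replicate numbers, vertical bars are exact 95% Poisson intervals for counting error alone, and black lines are group means over 4 libraries. The groups overlap in all 10 panels, and Ilp8 stands at 5.48 CPM in CRISPR 4 against at most 0.998 CPM in any other library.

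Scaled to length, the 10 genes covered a wide range of levels. Averaged over the 8 libraries, the level per kilobase of exon was highest for Socs36E, at 25.5 CPM per kb, followed by Mmp1 at 15.7, puc at 15.04 and Atf3 at 8.59 CPM per kb. The averages of Mmp1 and puc lay within each other's range over libraries, 12.9 to 19.5 CPM per kb for Mmp1 and 12.5 to 17.7 for puc. The ligands were lower, with egr at 3.79 and upd1 at 3.01 CPM per kb. Ilp8 averaged 1.24 CPM per kb, above upd3 at 0.573 CPM per kb, but without CRISPR 4 it averaged 0.520 CPM per kb, below upd3 at 0.597. Ets21C at 0.301 and upd2 at 0.174 CPM per kb were lowest over the 8 libraries.

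The ligand egr (FBgn0033483, 2R:10078366-10084210, dm6 coordinates, plus strand) is the entry point of the JNK branch. Its level was 10.1, 6.23, 6.08 and 4.92 CPM in CRISPR 1 to CRISPR 4, against 11.2, 9.11, 8.10 and 9.97 CPM in wt 1 to wt 4. CRISPR 2, CRISPR 3 and CRISPR 4 lay below every wt library, and CRISPR 1 lay among the wt libraries. The means were 6.83 ± 2.25 CPM in CRISPR and 9.59 ± 1.30 CPM in wt (SD, n = 4 each). The fitted difference was -0.49 (log2, SE 0.23, 95% interval -1.01 to 0.03), with an unadjusted edgeR p of 0.0603 in the fit across all genes, the smallest among the 10 genes. It did not pass. Within same-numbered libraries egr was lower in CRISPR in 4 of 4, and with the replicate number as a block the difference was -0.53 (SE 0.17, unadjusted p = 0.0175, edgeR adjusted p = 0.48), which did not pass either. In the not-used libraries the difference was -0.95 (SE 0.28, edgeR adjusted p = 0.885) and in the used ones, from the same joint fit, -0.055 (SE 0.28, edgeR adjusted p = 0.961), and the difference between those values, -0.89, did not pass either (edgeR adjusted p = 0.612).

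None of the receptor, adaptor and kinase genes between egr and AP-1 passed the test between genotypes. Of 22 genes listed as JNK pathway components, all were tested and none was called over all 8 libraries by edgeR or DESeq2, and none had an unadjusted p under 0.05 in either. Their median difference was 0.03 (log2), beside 0.02 for all genes tested. The receptor gene grnd averaged 140.4 ± 19.9 CPM in CRISPR discs and 140.2 ± 22.2 CPM in wt discs, and the receptor gene wgn 63.8 ± 7.51 CPM in CRISPR discs and 64.1 ± 6.77 CPM in wt discs (SD, n = 4 each). The JNK gene itself, bsk, averaged 85.2 ± 12.1 CPM in CRISPR and 82.6 ± 11.4 CPM in wt, and kay, which encodes Fos, 139.7 ± 22.9 CPM in CRISPR and 135 ± 12.9 CPM in wt. The smallest p on the list belonged to Traf4, an adaptor that can link receptors to the kinase cascade, with 21.0 to 24.4 CPM in CRISPR and 16.0 to 20.9 CPM in wt. Its groups did not overlap, the difference was 0.24 (log2) and the unadjusted p was 0.0552. In the used libraries edgeR and DESeq2 again called none of the 22, with 3 at an unadjusted p under 0.05 in each. Of all genes tested there, edgeR called 2.72% and had 22.4% at an unadjusted p under 0.05. DESeq2 called 7.53% there.

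The JNK phosphatase gene puc (FBgn0243512, 3R:8105332-8122294, plus strand) is a widely used reporter of JNK activity in discs. It stood at 55.8, 39.6, 41.8 and 56.3 CPM in CRISPR 1 to CRISPR 4, against 40.3, 48.6, 47.3 and 52.0 CPM in wt 1 to wt 4. The highest and the lowest library were both CRISPR, and the wt libraries lay between them. The difference was 0.04 (log2, SE 0.15). The SD of puc within genotypes was larger than that of 40.1% of all genes tested, so its libraries spread less than those of most genes.

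Mmp1 (FBgn0035049, 2R:24671294-24688184, minus strand) encodes a secreted matrix metalloproteinase that cuts basement membrane and is induced by JNK in wounded discs and tumours. Its level was 63.5, 73.8, 93.7 and 94.2 CPM in CRISPR 1 to CRISPR 4, against 68.7, 62.7, 62.4 and 89.5 CPM in wt 1 to wt 4. The 3 high libraries were CRISPR 3, CRISPR 4 and wt 4, which come from both genotypes and are all among the not-used ones. The genotype difference was 0.20 (log2, SE 0.17), and it was -0.035 with CRISPR 3, wt 2 and wt 3 left out. Of its exon bases, 284 overlap Pof on the opposite strand, and the strand setting of the counting is not given in the sources used here. The other metalloproteinase gene, Mmp2, was also highest in those 3 libraries, with 52.3 CPM in CRISPR 3, 58.8 CPM in CRISPR 4 and 58.9 CPM in wt 4, against 19.6 to 33.6 CPM in the other 5.

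Ets21C (FBgn0005660, 2L:544925-552923, minus strand), an ETS transcription factor gene that is induced downstream of JNK in regenerating and tumorous discs, was scarce. It had 1.25, 1.98, 1.40 and 1.06 CPM in CRISPR 1 to CRISPR 4, against 2.05, 2.17, 2.44 and 0.665 CPM in wt 1 to wt 4. These levels rested on 30 reads in wt 4 to 111 reads in wt 3. Of the wt libraries, 3 were above every CRISPR library and the other, wt 4, was below all of them. The difference was -0.36 (log2, SE 0.41). Of its 5407 exon bases, 1532 overlap nAChRbeta3 on the opposite strand, so its reads are uncertain.

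Atf3 (FBgn0028550, X:1242740-1275284, minus strand) encodes a stress-responsive bZIP transcription factor. It was the most variable of the well expressed genes, at 81.1, 92.4, 30.3 and 19.7 CPM in CRISPR 1 to CRISPR 4 and 91.2, 75.3, 73.3 and 19.5 CPM in wt 1 to wt 4. The 3 low libraries, CRISPR 3, CRISPR 4 and wt 4, were the ones in which Mmp1 was high. They came from both genotypes, and the genotype means were 55.9 ± 36.3 CPM in CRISPR and 64.8 ± 31.3 CPM in wt (SD, n = 4 each). The difference was -0.22 (log2, SE 0.56, 95% interval -1.49 to 1.06). The within-genotype SD of Atf3 exceeded that of 93.6% of all genes tested.

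Atf3 has 7025 bases of exon, and long genes were low in CRISPR 4 and wt 4, so its values were set beside those of 431 genes with 6 to 8 kb of exon, a window chosen after the data were seen. Relative to the median library, Atf3 stood at -1.30 (log2) in CRISPR 3, -1.92 in CRISPR 4 and -1.93 in wt 4. The median of the 431 genes was -0.02 in CRISPR 3, -0.47 in CRISPR 4 and -0.28 in wt 4. In these libraries, 1.39%, 1.16% and 0.696% of the 431 genes lay below Atf3, in the same order. Atf3 was therefore lower there than nearly all genes of its length, while in the other 5 libraries it lay within 0.32 of its median. What the 3 libraries share was not tested.

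**Figure D2:**
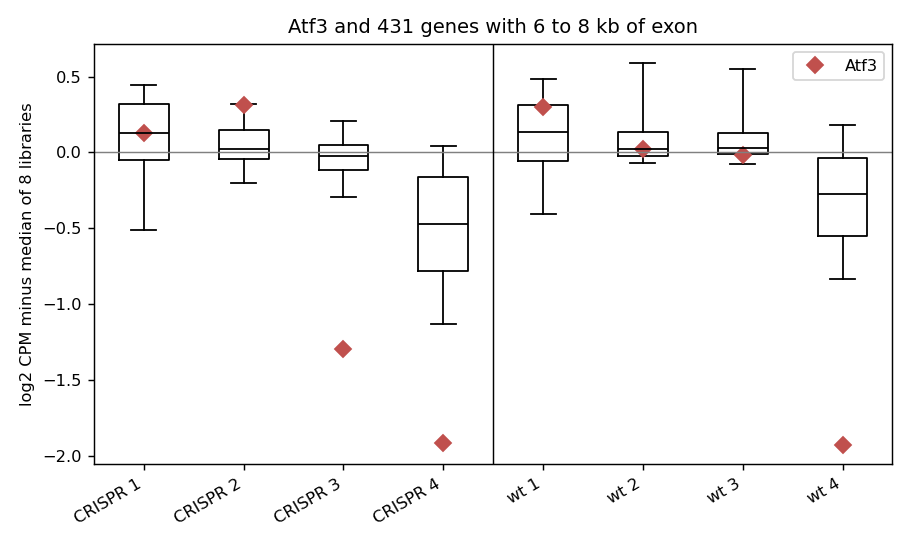
Atf3 (red diamonds) and 431 genes with 6 to 8 kb of exon (boxes: median and quartiles, whiskers: 10th to 90th percentile) as log2 CPM minus the median of the 8 libraries, with CRISPR libraries left and wt libraries right. Atf3 lies below the whiskers in CRISPR 3, CRISPR 4 and wt 4, at -1.30, -1.92 and -1.93.

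Ilp8 (FBgn0036690, 3L:17029812-17032080, minus strand), the hormone gene that is normally almost silent in intact discs, was high in a single library. It had 18, 26, 7 and 238 reads in CRISPR 1 to CRISPR 4, against 40, 16, 19 and 2 reads in wt 1 to wt 4. As levels these were 0.562, 0.661, 0.151 and 5.48 CPM in CRISPR and 0.998, 0.322, 0.417 and 0.0443 CPM in wt. The value in CRISPR 4, with an exact 95% Poisson interval of 4.80 to 6.22 CPM for counting error, was 5.49-fold above the next library, which was wt 1. The other 3 CRISPR libraries lay within the range of wt.

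The mean of Ilp8 was 1.71 ± 2.52 CPM in CRISPR and 0.445 ± 0.401 CPM in wt (SD, n = 4 each). The fitted difference was 1.95 (log2, SE 1.11). Without CRISPR 4 it was 0.02, and without CRISPR 4 and wt 4 it was -0.36. Ilp8 was the only 1 of 9255 genes tested that stood at least 4-fold higher in CRISPR 4 than in every other library. The other libraries held 0 to 9 such genes, with 9 in CRISPR 2 and 5 in wt 4. Genes with too few reads elsewhere fail the filter on low counts, so these counts leave out genes seen in a single library alone. In CRISPR 4 the JNK genes did not stand apart together: puc was highest there at 56.3 CPM, beside 55.8 CPM in CRISPR 1, and Mmp1 was highest at 94.2 CPM, beside 93.7 CPM in CRISPR 3, while egr had its lowest level there.

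The Unpaired genes lie in a cluster on the X chromosome, with upd2 at X:18240654-18243284, upd3 at X:18277233-18284596 and upd1 at X:18305354-18309291. Gaps of 33948 bases between upd2 and upd3 and 20757 bases between upd3 and upd1 separate them. Their levels ran in different directions over the libraries. Pearson's r of log2 CPM over the 8 libraries was 0.68 between upd1 and upd3, -0.62 between upd1 and upd2 and -0.84 between upd2 and upd3, given as a description because the values share libraries, depth and composition.

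The cytokine gene upd1 (FBgn0004956), which in discs is known for a patterned role in growth, had 12.1, 11.2, 8.32 and 6.28 CPM in CRISPR 1 to CRISPR 4, against 12.2, 9.11, 7.84 and 8.13 CPM in wt 1 to wt 4. Its genotype difference was 0.02 (log2, SE 0.23). The highest levels were in library 1 of both genotypes. The damage-induced upd3 (FBgn0053542) had 1.499, 1.499, 1.03 and 0.897 CPM in CRISPR and 1.70, 1.49, 1.43 and 0.643 CPM in wt, on 29 to 74 reads. Its difference was -0.09 (log2, SE 0.36), and the low libraries were again CRISPR 3, CRISPR 4 and wt 4.

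The other cytokine gene, upd2 (FBgn0030904), was near the limit of detection, with 7, 12, 31 and 20 reads in CRISPR 1 to CRISPR 4 and 5, 10, 10 and 25 reads in wt 1 to wt 4. As levels these were 0.219, 0.305, 0.668 and 0.460 CPM in CRISPR, against 0.125, 0.201, 0.220 and 0.554 CPM in wt. The 3 highest libraries were CRISPR 3, CRISPR 4 and wt 4, in which upd3 was lowest. The difference was 0.59 (log2, SE 0.55). The difference was between 0.26 and 1.17 with 1 library left out and -0.047 without CRISPR 3, wt 2 and wt 3.

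Receptor, kinase and transcription factor genes of the JAK-STAT branch were tested for 9 of 9 listed components, and neither edgeR nor DESeq2 called any over all 8 libraries. The receptor gene dome averaged 197 ± 60.5 CPM in CRISPR discs and 207 ± 46.6 CPM in wt discs (SD, n = 4 each). The kinase gene hop averaged 97.0 ± 27.2 CPM in CRISPR discs and 104 ± 22.0 CPM in wt discs, and Stat92E had 294 ± 43.1 CPM in CRISPR discs and 318 ± 43.3 CPM in wt discs. Of the components, 1, et, had an unadjusted edgeR p under 0.05, at 0.0267, where 4.30% of all genes tested had one. The product of et is a truncated receptor that dampens the pathway. It had 0.250 to 0.575 CPM in CRISPR and 0.643 to 1.23 CPM in wt, with no overlap, and a difference of -0.98 (log2). It did not pass after adjustment. In the used libraries edgeR called none of the 9 and had 2 at an unadjusted p under 0.05, where 22.4% of all genes tested had one. DESeq2 called 1 of the 9 there, ken, a transcriptional repressor gene, as higher in CRISPR (DESeq2 adjusted p = 0.00904, edgeR difference 0.33 on the log2 scale), where it called 7.53% of 10452 genes.

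Socs36E (FBgn0041184, 2L:18138675-18152417, minus strand), a feedback inhibitor of JAK-STAT signalling and a standard readout of Stat92E activity, was the only member called in the comparison of used libraries, of all 8 libraries or of their interaction. In the used libraries it was lower in CRISPR discs, at 86.2 CPM in CRISPR 1 and 87.7 CPM in CRISPR 2, against 112.8 and 114.6 CPM in wt 2 and wt 3. The means were 87.0 ± 1.02 CPM in CRISPR and 113.7 ± 1.31 CPM in wt (SD, n = 2 each). That is a 1.34-fold lower level, with a log2 difference of -0.43 (SE 0.06, edgeR adjusted p = 0.0454). This was 1 of 9 members tested there, upd2 having failed the filter on low counts. The same test called 2.72% of 9711 genes in either direction and 2.34% as lower in CRISPR, so 1 of 9 is not a result about the members as a group.

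In the not-used libraries the CRISPR and wt levels of Socs36E overlapped. They held 88.4 CPM in CRISPR 3 and 74.3 CPM in CRISPR 4, against 66.3 and 83.7 CPM in wt 1 and wt 4. The lowest of all 8 libraries was thus a wt one. The test of the difference between not-used and used libraries gave 0.48 (log2, SE 0.22, edgeR adjusted p = 0.616) and did not pass. Over all 8 the difference was -0.16 (log2, SE 0.17), and without CRISPR 3, wt 2 and wt 3 it was 0.14. The call in the used libraries held with RLE factors (edgeR adjusted p = 0.0458) and with no filter on low counts (edgeR adjusted p = 0.0345). DESeq2 also called it there (DESeq2 adjusted p = 0.000621), where it called 7.53% of 10452 genes. The call was lost when wt 2 or wt 3 was left out, and when the spread was shared over all 8 libraries (edgeR adjusted p = 0.508). With 1 used library left out, the difference was between -0.45 and -0.38 (log2). The small SE in the used libraries rests partly on wt 2 and wt 3, the closest pair of libraries (robust SD of the log2 ratio 0.0557).

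The 2 libraries with the high Socs36E level, wt 2 and wt 3, also had the highest sums of gut, fat body and nervous system markers. Their sums of hemocyte (blood cell) markers were not the highest, at 693 and 701 CPM against 880 CPM in CRISPR 3. The gene Ppn made up most of each of these sums, with 594, 599 and 788 CPM in the same order. In the used libraries only 1 of the 12 hemocyte markers had a fitted difference above 0. Their median was -0.73 (log2), beside 0.004 for all genes tested, and edgeR called none of them. For tracheal markers wt 2 and wt 3 were not highest either, at 1796 and 1782 CPM against 2062 CPM in CRISPR 2. The 10 gut markers summed to 2.31 and 8.39 CPM in CRISPR 1 and CRISPR 2, against 2124 and 2141 CPM in wt 2 and wt 3, with Jon65Aiv, a midgut protease gene, at 1.22 and 4.65 CPM in these CRISPR libraries and 1269 and 1284 CPM in these wt libraries. The 10 fat body markers summed to 33.2 and 64.8 CPM in CRISPR 1 and CRISPR 2, against 528 and 539 CPM in wt 2 and wt 3. The 9 nervous system markers that were matched, most of whose sum was elav, came to 61.6 and 72.4 CPM in these CRISPR libraries and 89.4 and 82.1 CPM in these wt libraries. No marker of these lists was at 0 in every library. CRISPR 3 had gut markers at 1182 CPM but fat body markers at 78.6 CPM, and Socs36E at 88.4 CPM. The part of these tissues in the Socs36E difference was not tested.

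**Figure D3:**
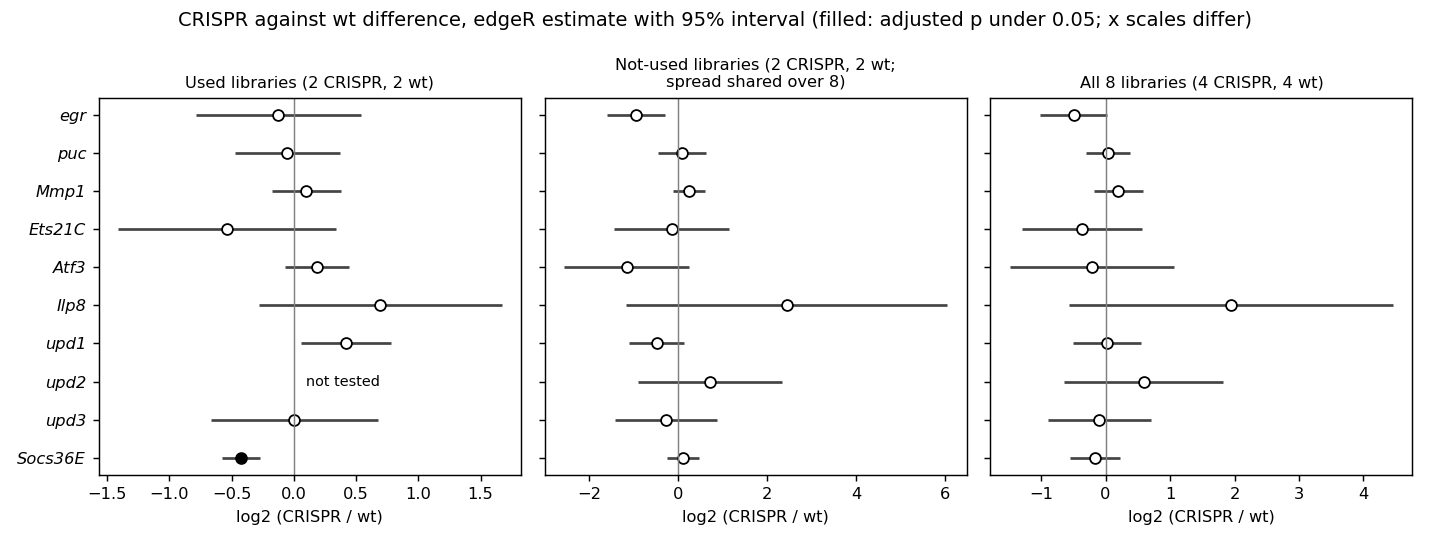
Log2 difference between CRISPR and wt for each disc damage gene with its 95% interval, in the used libraries (left), the not-used libraries (middle, from a joint fit of all 8) and all 8 libraries (right), with x scales that differ between panels. The filled circle marks the only adjusted p under 0.05, Socs36E in the used libraries at -0.43, and upd2 was not tested there.

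The remaining members did not pass in the used libraries. The nearest was upd1, at 12.1 and 11.2 CPM in CRISPR 1 and CRISPR 2, against 9.11 and 7.84 CPM in wt 2 and wt 3, with a difference of 0.42 (log2, SE 0.14, edgeR adjusted p = 0.181). In the not-used libraries it had 8.32 and 6.28 CPM in CRISPR 3 and CRISPR 4, against 12.2 and 8.13 CPM in wt 1 and wt 4. These directions were opposite. The test of the difference between not-used and used libraries gave -0.96 for upd1 (log2, unadjusted p = 0.0334, edgeR adjusted p = 0.585), the only member with an unadjusted p under 0.05 in edgeR. That test called 0 of the 10 members and 0 of all 10094 genes, or 0%, with 832 genes at an unadjusted p under 0.05, while DESeq2 called 151 genes (1.36%) and none of the members.

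Among themselves, the 10 genes did not move as a unit across libraries. Of the 45 pairs, 23 had a positive Pearson's r over the 8 libraries, from -0.885 for Mmp1 and Atf3 to 0.955 for Atf3 and upd3. These are descriptions over libraries that share depth and composition. Atf3, upd3 and Ets21C were all at or near their lowest in CRISPR 4 and wt 4, whereas Mmp1 and upd2 were high there. Within genotypes, Ilp8 varied more than 99.0% of all genes tested, Atf3 more than 93.6%, upd2 more than 87.5% and Ets21C more than 84.2%. Socs36E (54.0%), Mmp1 (50.4%) and puc (40.1%) were near the middle of all genes. The ranks were not matched for level, and counting error adds more to the SD of scarce genes such as Ilp8, upd2 and Ets21C.

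**Figure D4:**
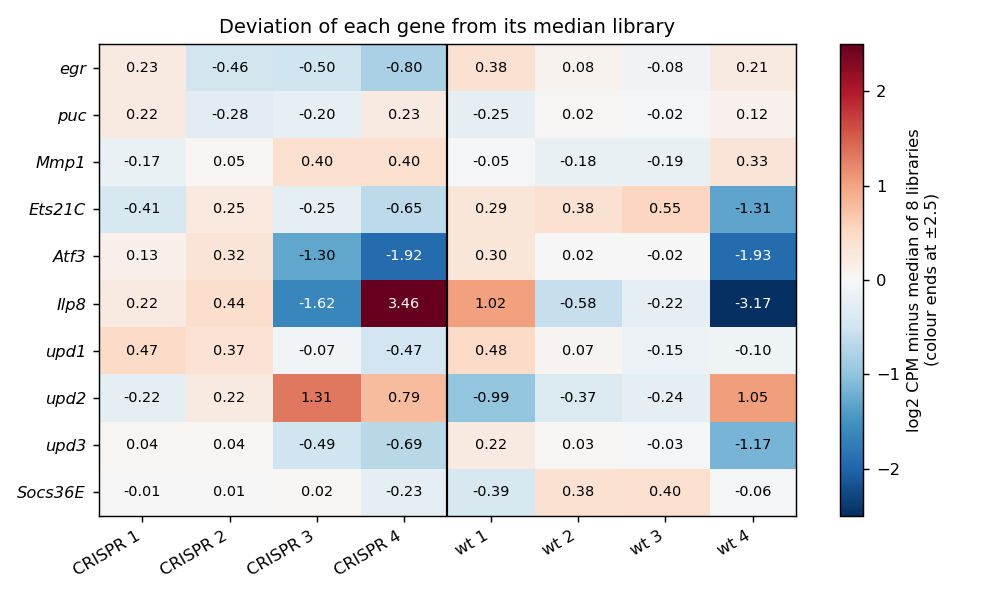
Log2 CPM of each disc damage gene minus the median of its 8 libraries, with CRISPR libraries left of the black line and wt libraries right of it. Colour ends at 2.5 in either direction, and the numbers are the deviations. CRISPR 3, CRISPR 4 and wt 4 hold the low values of Atf3 and upd3 and the high values of Mmp1 and upd2, and Ilp8 in CRISPR 4 is the largest deviation, at 3.46.

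The genes outside the 10 whose log2 CPM followed a member most closely over the 8 libraries were found by Pearson's r. For Atf3 they were inaE (r = 0.997) and Idgf6 (0.994), with Idgf6 at 54.4, 78.4, 20.4 and 13.2 CPM in CRISPR 1 to CRISPR 4 and 76.1, 53.7, 53.4 and 14.4 CPM in wt 1 to wt 4. For egr they were Alk (0.965) and phr6-4 (0.941), for puc CG12123 (0.982) and KCNQ (0.978), and for Mmp1 CG9812 (0.981) and CG30467 (0.978). For upd1 they were wrd (0.966) and rec (0.961), for upd2 kni (0.977) and Grl36b (0.955), and for upd3 RabX4 (0.984) and Jhbp16 (0.982). For Ets21C they were CG34437 (0.962) and Vajk3 (0.958), and for Socs36E stj (0.978) and CG12926 (0.977). Ilp8 had the least close neighbours, CG43245 (0.901) and Alms1b (0.884). These are the highest of many correlations over 8 libraries and carry no test.

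Other genes of the damage and regeneration response did not pass the edgeR test either. Of 28 listed, 25 were matched and tested, while br, wg and Duox were not matched to a gene ID and not tested. Of the 25, edgeR called none over all 8 libraries or over the used ones. It had 1 and 11 at an unadjusted p under 0.05, where 4.30% and 22.4% of all genes tested had one. DESeq2 called none over all 8 (2 at an unadjusted p under 0.05) and 4 of 25 over the used ones, where it called 7.53% of all genes, with cher, which encodes a filamin, higher in CRISPR and Cat, ImpL2 and Thor lower. These 4 are named because DESeq2 called them, and their edgeR differences there were 0.42 for cher, -0.36 for Cat, -0.74 for ImpL2 and -1.04 for Thor (log2). The smallest p over all 8 belonged to scaf, a secreted protease-like gene downstream of JNK, with 36.7 to 93.0 CPM in CRISPR and 25.6 to 36.5 CPM in wt (difference 0.72 on the log2 scale, unadjusted p = 0.0324). Its groups were separated only by 36.74 CPM in CRISPR 4 against 36.53 CPM in wt 2. CRISPR 1, at 93.0 CPM, stood apart from 36.7 to 44.9 CPM in the other CRISPR libraries. A few genes of the list, named after their values were seen, were low or high in the same libraries as Atf3 and Mmp1. The transcription factor gene chinmo had 44.9 CPM in CRISPR 3, 36.8 CPM in CRISPR 4 and 29.7 CPM in wt 4, against 109 to 246 CPM in the other 5 libraries. The nuclear receptor gene ftz-f1 had 16.1, 11.7 and 9.82 CPM in the same 3 libraries and 42.7 to 73.0 CPM in the others, and Cat, the gene of the antioxidant enzyme catalase, 334, 404 and 438 CPM against 177 to 242 CPM. Other genes of the list did not follow this division, such as Thor, a translation inhibitor gene, which was highest in wt 2 and wt 3 at 9.61 and 9.82 CPM against 3.09 to 8.47 CPM elsewhere.

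Cell death genes were set beside the damage genes because dying cells are a common trigger of both pathways. Of 12 listed, 11 were tested over all 8 libraries and edgeR called none. It had 1 at an unadjusted p under 0.05, where 4.30% of all genes tested had one. The proapoptotic hid had 112 to 199 CPM in CRISPR and 104 to 180 CPM in wt, and the caspase gene Dronc 64.8 to 129 CPM in CRISPR and 65.9 to 121 CPM in wt. The lowest p belonged to Diap2, an inhibitor of apoptosis, at 73.1, 59.9, 60.2 and 59.3 CPM in CRISPR 1 to CRISPR 4, against 43.0, 45.7, 45.4 and 46.7 CPM in wt 1 to wt 4. All 4 CRISPR libraries lay above all 4 wt libraries, and the difference was 0.48 (log2, SE 0.10, edgeR adjusted p = 0.256). It did not pass in edgeR, nor in the used libraries, where it was 0.50 (edgeR adjusted p = 0.0825), but DESeq2 called it in both comparisons (DESeq2 adjusted p = 0.00288 over all 8 libraries and 0.00432 over the used ones). DESeq2 called 1.07% of all genes over the 8 libraries and 7.53% over the used ones.

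**Figure D5:**
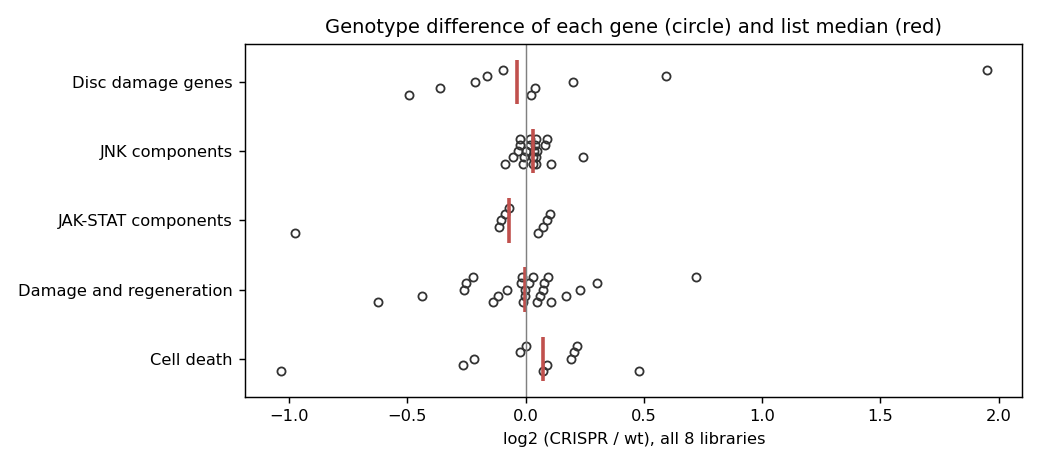
Log2 difference between CRISPR and wt over all 8 libraries for each gene tested (circles) of the disc damage genes and 4 related lists, with the median of each list in red. The medians lie between -0.07 for JAK-STAT components and 0.07 for cell death genes, and Ilp8 is the point at 1.95.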

How the data were processed

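Whole wing discs of the CRISPR and wt genotypes were measured by RNA-seq, with 4 libraries each. Each library's file holds the unnormalized counts of reads per gene that the authors deposited. The submitters' processing notes name FastQC, Trimmomatic 0.36, STAR, DESeq2 and the build dm6. How reads were counted, on which annotation and whether by strand, is not given in the sources used here, so genes with overlapping exons have uncertain counts. Per the labels' protocols, a Monarch kit served for RNA and a ThruPLEX DNA-Seq kit for the libraries. Special rows that name no gene stayed out of library sizes (0.955% to 1.91% of reads on no feature, 3.07% to 3.44% ambiguous, 2.22% to 4.40% without a unique place).

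Levels are CPM computed here with TMM factors over the 8 libraries. Correlations and the ranks of SDs within genotypes used log2 CPM with a pseudocount of 0.5. SDs printed after a mean are of CPM, and the robust SD of library pairs is of the log2 ratio of reads without a pseudocount. The fits used edgeR 4.0.16 under R 4.3.3 (filterByExpr, minimum count 10 and minimum total 15, two-sided quasi-likelihood test, Benjamini-Hochberg over all genes tested, called at an adjusted p under 0.05). The fits compared CRISPR with wt over all 8 libraries and over the 4 used ones, and tested the interaction of genotype with use status. Every adjusted p is edgeR's unless DESeq2 (1.42.0) is named. A count of 0 allows up to 0.0603 to 0.0937 CPM, taking 3 counts per library as the floor. Poisson intervals and floors describe counting error alone, because PCR copies of a molecule are not independent. The fit was tested before use on simulated counts of independent libraries, with the same spread for every gene. Those counts held no tissue or exon length differences between libraries, so that run does not check the fit against these.

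Coordinates and exon lengths come from Ensembl's annotation of the release 6 assembly (dm6 coordinates), and no sequence was used. The members and lists were chosen with earlier results of these data known. The rule for named genes took the 10 members, the called genes of each list or the 2 with the smallest p, and for each member the 2 genes closest by Pearson's r, of which the text names the members, the closest genes and the gene with the smallest p over all 8 libraries in each pathway list. The values of cher, ImpL2, Thor, ken, grnd, wgn, bsk, kay, dome, hop, Stat92E, Mmp2, chinmo, ftz-f1, Cat, hid and Dronc were chosen for the text after they were seen. Same-numbered libraries of the genotypes deviated together from their group means (correlations of 0.446, 0.160, 0.442 and 0.721 for numbers 1 to 4, against -0.521 to 0.442 over the 12 pairs of different numbers, with CRISPR 2 closer to wt 1 and wt 3 and CRISPR 3 as close to wt 2 as to wt 3), a pairing read from the data and not stated by the labels. The alternatives were DESeq2, RLE factors, no filter, the replicate number as a block, leaving out libraries, and a shared spread.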

Additional observations from a re-analysis of the deposited data

Results flagged for a closer look

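Each group of 4 libraries was examined for a library standing apart from the other 3, for the 10 disc damage genes in both genotypes (20 groups). Such a rule marks about 1 group in 20 by chance, and it marked 2 here, both in CRISPR 4. Ilp8, the pupariation-delaying hormone gene, stood at 5.48 CPM in CRISPR 4, above 0.151 to 0.661 CPM in the other CRISPR libraries, and its gap to the nearest of them was 0.904 of the group's range. The wt libraries lay between 0.0443 and 0.998 CPM. Socs36E, the JAK-STAT feedback gene, stood at 74.3 CPM in CRISPR 4, below 86.2 to 88.4 CPM in the other CRISPR libraries, a gap of 0.847 of the range. The wt libraries of Socs36E ran from 66.3 to 114.6 CPM, on both sides of that value.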

How the results depend on the processing

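Over all 8 libraries, no alternative run called any of the 10 members, while the count over all genes, 17, became 122 in DESeq2, 0 without CRISPR 3, wt 2 and wt 3 (the libraries with gut transcripts), 0 without CRISPR 4 and wt 4, and 1 to 26 with 1 library left out. The fit with the replicate number as a replicate block called 14 genes and none of the members, and its Ilp8 difference was 0.90. It could not be fitted for the used libraries, whose genotypes share only number 2. In the used libraries the count of 264 became 787 in DESeq2, 400 with no filter and 5 with the spread shared over all 8, which also left 0 members called. With 1 library left out, which assumes that the lone library varies like the other genotype's, it was 39 to 5759 genes and 0 to 6 members. For the interaction, 0 calls became 151 in DESeq2 and 67 with no filter, and 0 to 276 genes and 0 to 1 members with 1 library left out. The cause was not tested.

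No member's difference that changed sign had passed the test in its main fit. Without the libraries with gut transcripts they were -0.035 for Mmp1, -0.042 for upd1, -0.047 for upd2, 0.15 for upd3, 0.081 for Ets21C, 0.22 for Atf3 and 0.14 for Socs36E (log2). Without CRISPR 4 and wt 4 they were -0.019 for puc and -0.36 for Ilp8, and with the shared spread 0.013 for puc in the used libraries. With 1 library left out of all 8, the ranges that crossed 0 were -0.075 to 0.13 for puc, -0.12 to 0.15 for upd1, -0.34 to 0.023 for upd3 and -0.57 to 0.039 for Atf3. In the used libraries they were -0.29 to 0.16 for puc, -0.033 to 0.23 for Mmp1, -0.030 to 0.033 for upd3 and -0.48 to 0.17 for egr. For the interaction they were -0.17 to 0.36 for puc, -0.088 to 0.38 for Mmp1, -2.52 to 5.15 for Ilp8, -0.32 to 1.89 for upd2, -0.79 to 0.52 for upd3, -0.17 to 1.37 for Ets21C and -2.03 to 0.11 for Atf3. Some ends of the ranges for the used libraries and for the interaction did pass, in runs that left a lone library in a group. Counts of 2 to 238 reads for Ilp8 and 5 to 31 reads for upd2 limit the precision of single libraries. Without CRISPR 4, an alternative added after seeing the data, Ilp8 averaged 0.520 CPM per kb, against 1.24 CPM per kb over all 8.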
